A study of Mus musculus with 3 samples.

Results

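Haptoglobin (Hp), clusterin (Clu), pentraxin 3 (Ptx3), the chemokines Cxcl1 and Cxcl10, caspase 4 (Casp4) and complement component C4b (C4b) are 7 genes of acute-phase, chemotactic and innate defence responses, out of 25154 genes listed in the 3 tables of mouse brown adipose tissue (BAT) nuclei. They were chosen from these same data for high values in denervated or white adipocyte-like nuclei, so their levels between libraries and between those nuclei are given as a description and not as a test. All 7 are listed in every table. One library was made for each of 3 conditions from adult mice labelled wild type and C57Bl6 (C57BL/6J in the study's methods): untreated BAT, BAT after a sham operation, and BAT after surgical denervation, in which intercostal nerve branches to the left lobe of the interscapular depot were cut. The untreated and the denervated library each pooled nuclei of 20 male mice aged 8 weeks, and denervated tissue was taken 3 days after surgery; the number of mice and the time after surgery of the sham library were not given in the sources used here. The study's scheme for the denervated library also lists tamoxifen, which is not mentioned for the untreated library, so that its effect and that of denervation cannot be told apart. The header of the denervated table carries a run name that contains "KO", which goes against the wild-type label, and the label was followed. Nuclei came from the floating, lipid-rich layer of digested tissue, and each value is a count of unique molecular identifiers (UMIs, 1 per captured RNA molecule) per gene and nucleus. With 1 library per condition no difference between conditions has a replicate check, and all intervals below are 95% intervals for counting error only. Brackets after a median over the 7 genes hold the medians of the lower and of the upper bounds, which is not an interval for the median.

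In mammals the acute-phase response is the shift in secreted proteins that follows tissue damage or infection, driven mostly by interleukin-1, tumour necrosis factor and interleukin-6 through NF-κB, STAT3 and C/EBP factors. The liver makes most acute-phase plasma proteins, but adipocytes also secrete haptoglobin, pentraxins, complement factors and chemokines, white adipocytes being the better known source. Chemokines are small secreted proteins that attract leukocytes, and caspase 4 (also called caspase 11 in mice) is an intracellular sensor of bacterial lipopolysaccharide that starts pyroptosis.

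Promoters are shown here because several of the 7 genes were high in the same class of nuclei. The RefSeq table of promoter sequences (GRCm38.p6) held 4 of the 7 genes, and the 250 bases before the annotated start are printed 5′ to 3′ on the gene's strand, with matches to 4 motifs in capitals: the κB motif, the C/EBP motif TTGCNNAA, the STAT motif TTCNNNGAA and the interferon-stimulated response element (ISRE), each searched on both strands. Ptx3 at chr3:66219637-66219886, plus strand, held 1 C/EBP match, Cxcl1 at chr5:90890995-90891244, plus strand, held 2 overlapping κB matches, Cxcl10 at chr5:92348890-92349139, minus strand, held 2 κB matches and 1 interferon element, and Casp4 at chr9:5308599-5308848, plus strand, held 2 overlapping κB matches.
Ptx3: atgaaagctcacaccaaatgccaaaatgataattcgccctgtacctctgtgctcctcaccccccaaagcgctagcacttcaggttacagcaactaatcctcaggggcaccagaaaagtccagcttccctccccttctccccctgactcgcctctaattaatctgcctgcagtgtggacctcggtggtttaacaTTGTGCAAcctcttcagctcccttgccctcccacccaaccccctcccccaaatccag
Cxcl1: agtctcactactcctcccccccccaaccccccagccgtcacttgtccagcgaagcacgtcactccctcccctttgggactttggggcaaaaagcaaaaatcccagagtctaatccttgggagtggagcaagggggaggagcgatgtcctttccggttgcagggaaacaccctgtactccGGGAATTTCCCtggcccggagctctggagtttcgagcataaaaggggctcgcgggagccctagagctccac
Cxcl10: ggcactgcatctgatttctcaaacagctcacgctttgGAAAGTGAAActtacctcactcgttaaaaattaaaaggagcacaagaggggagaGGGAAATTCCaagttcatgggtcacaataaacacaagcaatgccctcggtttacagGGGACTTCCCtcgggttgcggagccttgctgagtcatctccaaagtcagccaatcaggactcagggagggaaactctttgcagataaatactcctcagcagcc
Casp4: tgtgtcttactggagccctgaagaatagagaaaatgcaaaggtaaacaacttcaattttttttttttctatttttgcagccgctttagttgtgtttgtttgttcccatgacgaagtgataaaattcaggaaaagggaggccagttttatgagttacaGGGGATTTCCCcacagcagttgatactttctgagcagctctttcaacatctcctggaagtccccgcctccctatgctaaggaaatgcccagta
Among the 32851 promoters of the table, 3.90% held a κB match, 9.56% a C/EBP match, 7.02% a STAT match and 2.98% an interferon element, all counted in windows of the same length, and in the printed windows no match of one motif overlapped another motif. The κB matches of Cxcl1 began 71 and 70 bases before the start, those of Cxcl10 159 and 103, and those of Casp4 93 and 92. The C/EBP match of Ptx3 began 57 bases and the interferon element of Cxcl10 213 bases before the start. A second Casp4 start in the table lies 11 bases further on and has the same matches. These are matches of letters, and no binding was measured. Hp, Clu and C4b were not in the table. In the GENCODE vM21 annotation of GRCm38, Hp lies on chromosome 8 (109575128 to 109579172, minus strand), Clu on chromosome 14 (65968483 to 65981547, plus strand) and C4b on chromosome 17 (34728380 to 34743882, minus strand).

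Classes of nuclei were rebuilt by clustering each library with the 7 genes and their pathway lists left out, and each cluster was named from marker genes. Brown adipocyte (BA)-like nuclei numbered 4684, 3496 and 5049 in the untreated, sham and denervated library (the order of all triplets below), endothelial cell (EC)-like nuclei 4558, 5285 and 2607, and white adipocyte (WA)-like nuclei 107, 911 and 835. Of the white adipocyte markers followed singly, Slc7a10, Nnat and Retn were higher in WA-like nuclei in every library, but Lep was not. The white-fat amino acid transporter Slc7a10 was at 615, 581 and 801 CPM (UMIs of the gene per 1000000 UMIs of the class in that library) in WA-like nuclei against 1.88, 40.9 and 10.7 in BA-like nuclei, and the uncoupling protein Ucp1 was at 347, 403 and 309 CPM in BA-like against 85.5, 63.8 and 82.7 in WA-like nuclei. Lep, the leptin gene, was at 194, 51.4 and 109 CPM in WA-like against 125, 29.9 and 121 CPM in BA-like nuclei, so in the denervated library it did not set the classes apart. No untreated BA-like cluster had a brown marker among its 10 leading genes, and the one of 1204 nuclei had Lep among them. Without that cluster, all 70 values of the 7 genes that were recomputed stayed inside their counting intervals. Only those that use untreated BA-like nuclei could change.

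The libraries differed in ways that touch every comparison. Total UMIs were 14971579, 14725864 and 9420030, median UMIs per barcode 859, 781 and 428, and mitochondrial UMIs 6.71%, 12.9% and 2.95%. The sham library stood apart: over genes of BA-like nuclei the interquartile range of log2 ratios ran from -0.20 to 0.19 for denervated over untreated, but from -0.43 to 0.43 for denervated over sham. Sham BA-like nuclei also held the 9 white adipocyte markers at a summed 4502 CPM, against 1402 untreated and 1979 denervated. Most of this sum came from markers not followed singly. Slc7a10, Retn, Nnat and Lep were at 40.9, 95.9, 15.7 and 29.9 CPM in sham BA-like nuclei. In denervated BA-like nuclei they were at 10.7, 30.9, 19.0 and 121 CPM. Heat shock and immediate early genes made up 3.55% of UMIs in sham WA-like nuclei against 1.24% untreated and 1.81% denervated. Of the 70 values of the 7 genes recomputed under each alternative, 19 left their counting interval in nuclei with 800 to 1600 UMIs, 5 at no more than 10% mitochondrial UMIs and 6 without the clusters led by heat shock or immediate early genes. The last of these took out BA-like nuclei only, so it is no check on ratios between libraries in WA-like or EC-like nuclei. The part of the white markers in sham BA-like nuclei was not tested. Denervated values of the main classes are given against both other libraries. Pairs of libraries shared 251 to 278 cell barcodes, and leaving these nuclei out moved none of the 70 recomputed values past its interval.

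The largest levels of all 7 genes in the denervated library were found in WA-like nuclei, above every other named class. Over the 7 genes, the median log2 ratio of denervated to untreated WA-like nuclei was 3.71 (2.34 to 5.60; medians of the interval bounds), and all 7 were at least 2-fold higher, beside a median of -0.12 over all 4482 genes, of which 8.61% were at least 2-fold higher. With at most 10% mitochondrial UMIs the median over the 7 genes was 2.32. Against sham WA-like nuclei the median was 1.50 (1.37 to 1.63), with 5 of the 7 at least 2-fold higher, beside 0.13 over all genes, of which 12.9% were. Adipocyte markers moved in the same nuclei: the 8 general ones summed to 13895, 13119 and 8064 CPM, the 9 brown ones to 2507, 2331 and 1964 CPM and the 9 white ones to 7902, 17221 and 8576 CPM, and their part in the levels was not tested. Counting genes at least 2-fold higher in the denervated library than in both others, with at least 50 CPM in a library, 5 of the 7 were called (Hp, Ptx3, Cxcl1, Cxcl10 and Casp4), where 3.9% of all 4766 genes were. The rule that chose the genes used these nuclei, so nothing is read from this count.

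**Figure D1:**
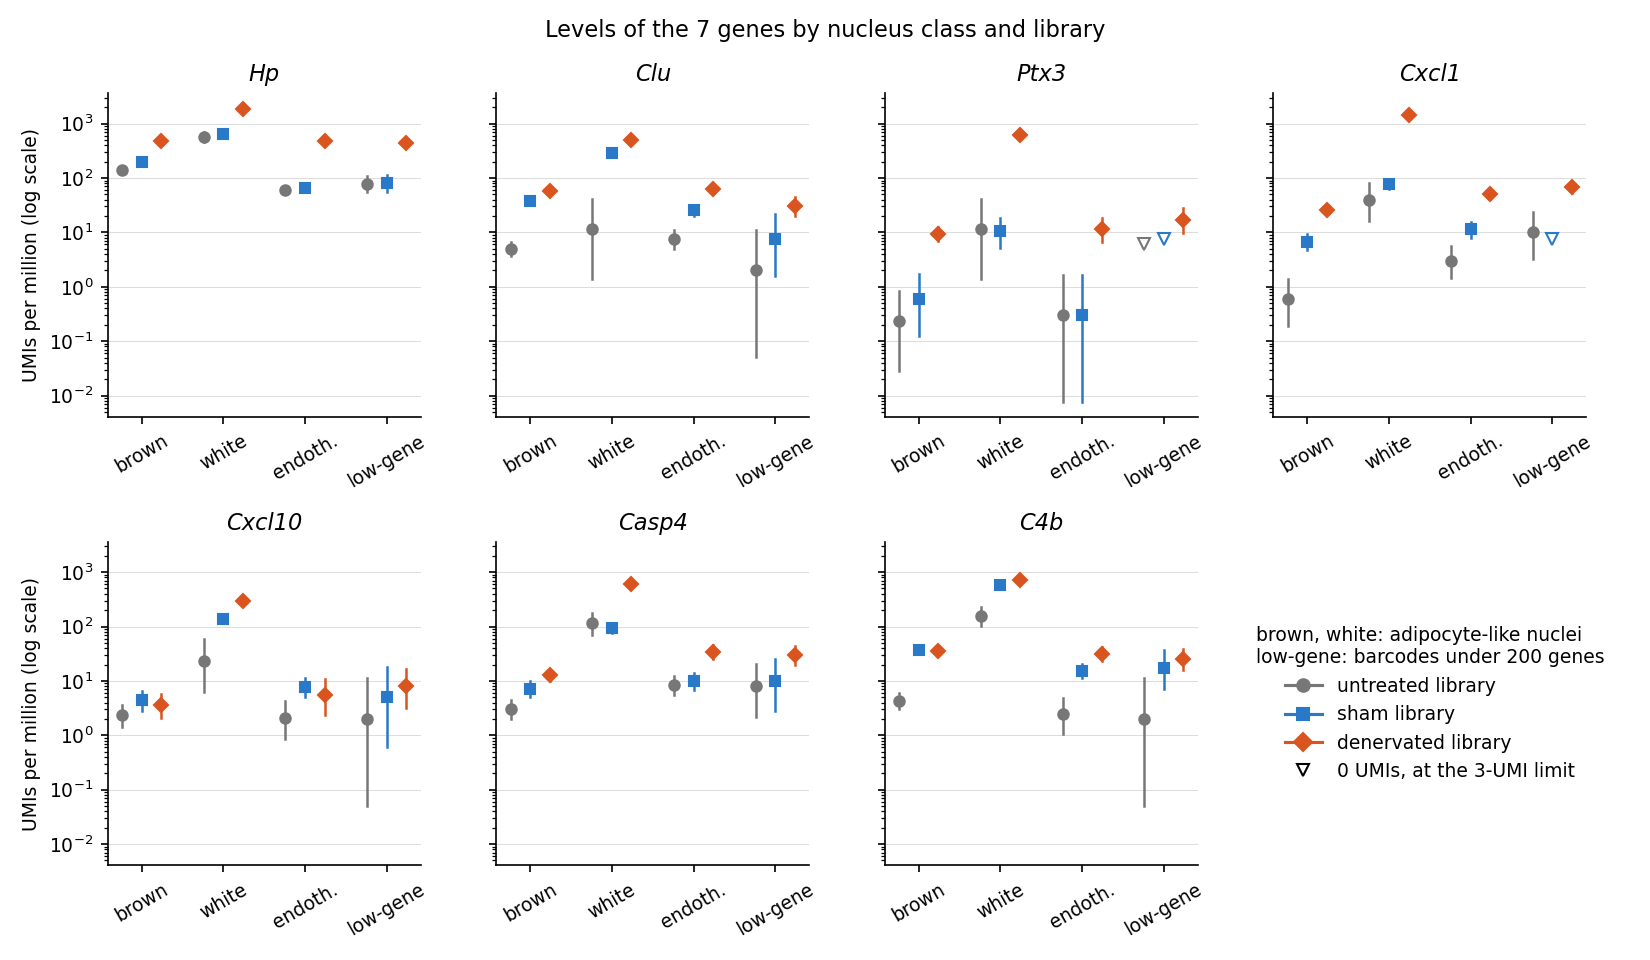
CPM (log scale) of each of the 7 genes in brown adipocyte-like, white adipocyte-like and endothelial-like nuclei and in barcodes with under 200 detected genes, for the untreated, sham and denervated libraries. Points are values from summed UMIs, bars are exact Poisson 95% intervals for counting error, and open triangles mark 0 UMIs at the limit that 3 UMIs would give. The denervated white adipocyte-like point is the highest in all 7 panels, and for Ptx3 it is at 614 where the other 2 libraries are at 11.4 and 10.5.

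Hp encodes haptoglobin, the plasma protein that binds free haemoglobin. In WA-like nuclei it was at 575 (469 to 699), 644 (597 to 695) and 1823 (1729 to 1921) CPM. Untreated and sham were alike within counting error and the denervated library lay above both, 3.17-fold (2.59 to 3.92) and 2.83-fold (2.58 to 3.10). In BA-like nuclei Hp was at 140, 199 and 477 CPM, with the denervated library 3.42-fold (3.19 to 3.67) above untreated and 2.40-fold (2.23 to 2.58) above sham. Hp was the only one of the 7 called in BA-like nuclei, of 2 that reached 50 CPM there, where 0.544% of 4965 genes were called higher and 0.0403% lower. Denervated EC-like nuclei held Hp at 476 CPM and barcodes with under 200 detected genes at 449 CPM (406 to 496), an interval that overlaps the BA-like one. A change in brown adipocytes themselves is therefore not read from this call.

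Ptx3 encodes a long pentraxin, a secreted pattern recognition protein. In WA-like nuclei it was at 11.4 (1.38 to 41.2), 10.5 (5.23 to 18.7) and 614 (560 to 671) CPM, from 2, 11 and 475 UMIs. The untreated and sham levels overlapped and the denervated level was 53.9-fold (14.8 to 446) and 58.6-fold (32.5 to 118) higher. In the denervated library 85.7% of all Ptx3 UMIs lay in WA-like nuclei, which made up 8.61% of nuclei and 9.72% of UMIs. BA-like nuclei held 2, 3 and 47 Ptx3 UMIs, or 0.234, 0.598 and 9.30 CPM. The Ptx3 gene (chromosome 3, 66219910 to 66225805) overlaps Veph1, which was at 11.4, 4.76 and 15.5 CPM in WA-like nuclei. Reads of overlapping genes cannot be told apart where the counting ignores strand, and the use of strand was not given in the sources used here.

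Clu encodes clusterin, an extracellular chaperone that also circulates on lipoproteins. In WA-like nuclei it was at 11.4 (1.38 to 41.2), 283 (251 to 317) and 499 (450 to 551) CPM. Here the sham library was also far above untreated, 24.8-fold (6.81 to 206, from 2 untreated UMIs), and the denervated library was 1.76-fold (1.51 to 2.06) above sham. With classes from marker UMIs the last log2 ratio went from 0.82 to 1.71, past 2-fold, and with at least 500 detected genes to 1.13. BA-like nuclei showed the same order at lower levels, with 5.04, 37.5 and 56.6 CPM. Of its denervated UMIs, 49.4% lay in WA-like and 36.6% in BA-like nuclei.

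Cxcl1 encodes a ligand of the receptor Cxcr2 that attracts neutrophils. In WA-like nuclei it was at 39.9 (16.0 to 82.2), 79.0 (62.9 to 97.9) and 1438 (1355 to 1525) CPM, from 7, 83 and 1113 UMIs. The denervated level was 36.1-fold (17.4 to 89.9) above untreated and 18.2-fold (14.6 to 23.0) above sham. The single denervated WA-like nucleus with most Cxcl1 UMIs held 19, or 1.71% of the class total. Other denervated classes also held Cxcl1: fibroblast-like nuclei were at 615 CPM (428 to 855, 35 UMIs) and immune-like nuclei at 406 CPM (314 to 518), against 56.6 and 98.1 CPM untreated (2 and 6 UMIs) and 26.5 and 50.01 CPM sham (1 and 3 UMIs).

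Cxcl10 encodes an interferon-inducible ligand of Cxcr3 that attracts activated T cells. In WA-like nuclei it was at 22.8 (6.21 to 58.3), 137 (116 to 161) and 298 (261 to 340) CPM, so the 3 libraries were stepwise apart. The denervated level was 13.1-fold (5.05 to 48.5) above untreated and 2.18-fold (1.76 to 2.70) above sham. In BA-like nuclei it was at 2.34, 4.39 and 3.56 CPM, and the denervated level differed from neither library beyond counting error (log2 ratio 0.60, -0.40 to 1.60, and -0.30, -1.28 to 0.67). This rests on the classes: the ratio to untreated was 2.02 with all libraries clustered together, 2.91 with the genes kept in the clustering and 3.54 with classes from marker UMIs, and the ratio to sham was 0.79 in the first of these and -1.34 without removal of doublets. Of the 20 untreated BA-like UMIs, 12 came from 1 nucleus. Cxcl10 (chromosome 5, 92346638 to 92348889) lies inside the annotated span of Art3, which was at 912, 1492 and 1274 CPM in WA-like nuclei, so reads of these overlapping genes carry the same doubt.

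Casp4 was at 114 (69.6 to 176), 94.2 (76.6 to 115) and 597 (544 to 654) CPM in WA-like nuclei. The first 2 overlapped, and the denervated level was 5.24-fold (3.35 to 8.66) and 6.33-fold (5.09 to 7.95) higher. It was also found in denervated fibroblast-like nuclei at 246 CPM (134 to 413) and immune-like nuclei at 213 CPM (147 to 297), with fibroblast-like values of 56.6 untreated (2 UMIs) and 79.4 sham (3 UMIs). Immune-like nuclei of the untreated library were at 180 CPM (89.8 to 322), and those of the sham library held 0 UMIs, which allows up to 50.01 CPM. Casp4 lies on chromosome 9 (5308828 to 5336783) and Cxcl1 on chromosome 5 (90891241 to 90893115).

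C4b encodes the fourth component of complement, which joins the classical and lectin pathways after C1 or mannose-binding lectin. In WA-like nuclei it was at 154 (101 to 224), 573 (528 to 621) and 716 (657 to 778) CPM. Both operated libraries lay above untreated, and the denervated level was only 1.25-fold (1.11 to 1.40) above sham. With classes taken from marker UMIs of each nucleus instead of clusters, this ratio turned to a log2 value of -0.073. In BA-like nuclei the sham and denervated values were 36.9 and 36.0 CPM against 4.34 untreated, a log2 ratio between them of -0.03 (-0.34 to 0.27). Sham Schwann-like nuclei held C4b at 523 CPM (382 to 700, 45 UMIs), with 4 UMIs untreated (204 CPM) and 1 denervated (33.3 CPM). C4b has a near-identical neighbouring copy in the mouse genome, so its counts are uncertain where reads could be assigned to either.

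**Figure D2:**
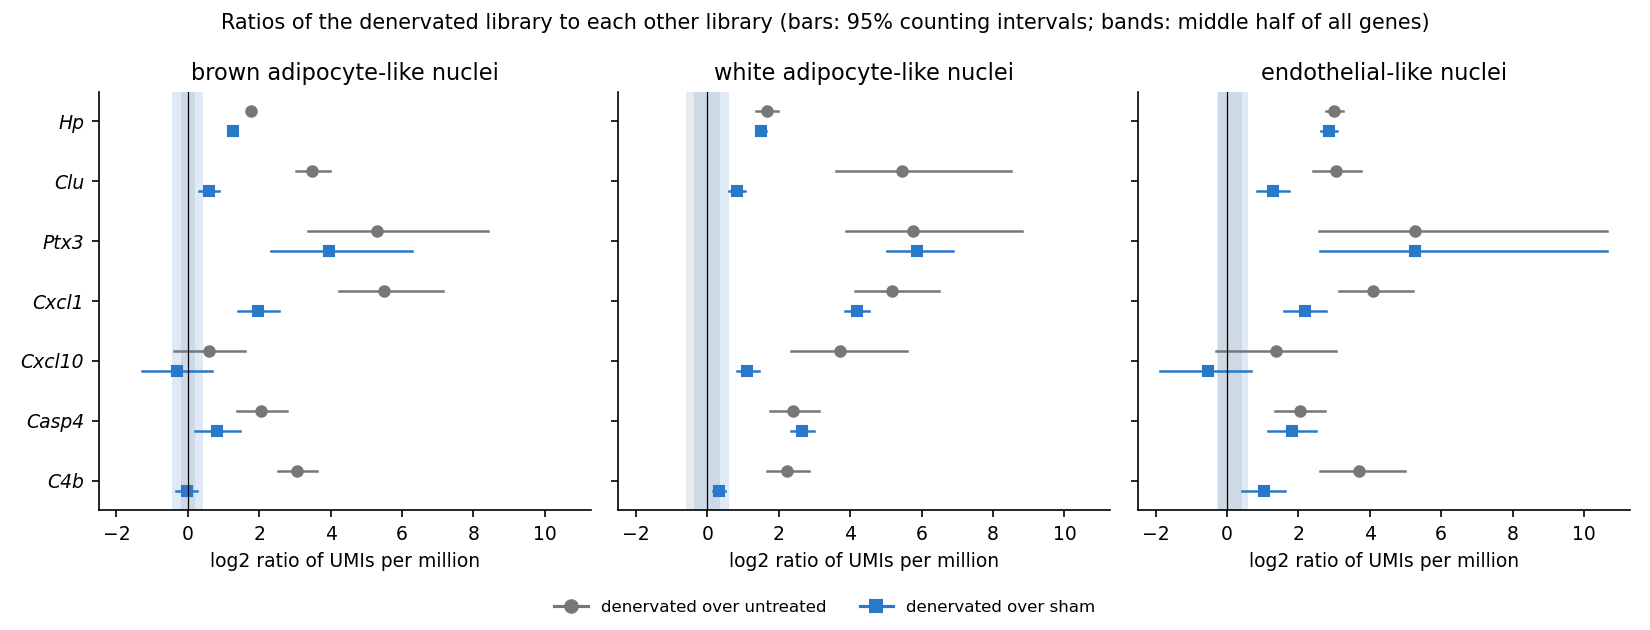
Log2 ratio of CPM in the denervated library to the untreated (grey circles) and sham (blue squares) library for the 7 genes in 3 nucleus classes. Bars are exact conditional binomial 95% intervals for counting error and shaded bands the interquartile range of all genes with at least 50 CPM; in white adipocyte-like nuclei the smallest ratio is that of C4b over sham at 0.32 and the largest that of Ptx3 over sham at 5.87.

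Within each library the 7 genes were also set apart by adipocyte class. WA-like over BA-like levels had a median log2 ratio of 5.15 untreated, 3.72 sham and 5.56 denervated over the 7 genes, beside -0.08, -0.28 and -0.21 over all genes, and all 7 were at least 2-fold higher in WA-like nuclei in each library, where 12.5%, 10.3% and 13.2% of all genes with at least 50 CPM in either class were. Of the 7, 3 untreated, 6 sham and 7 denervated reached that level. In the untreated library Cxcl1 was 68.1-fold (18.6 to 272), Casp4 37.4-fold (19.8 to 69.6) and C4b 35.5-fold (20.8 to 59.9) higher in the 107 WA-like nuclei, while the interval of Clu (2.26-fold, 0.265 to 8.68) included no difference. In the denervated library Cxcl10 was 83.8-fold (51.8 to 144), Ptx3 66.0-fold (48.8 to 91.0) and Hp 3.82-fold (3.57 to 4.08) higher. With classes from marker UMIs of each nucleus the log2 ratio fell from 6.39 to 3.36 for Cxcl10 and from 6.04 to 3.73 for Ptx3. The median over the 7 genes fell to 2.30 sham and 3.36 denervated with these classes. The Hp ratio was of like size in the other libraries, at 4.12-fold and 3.24-fold. The rule used these classes, so these values too are a description.

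Of other cell types, only immune, neutrophil and fibroblast markers are given here for the same nuclei. In denervated WA-like nuclei the 7 immune markers summed to 19.4 CPM, against 28.5 untreated and 18.1 sham, with Ptprc at 1.29 CPM, and of 4 neutrophil markers S100a8, S100a9 and Cxcr2 were at 0. Fibroblast markers summed to 150 CPM against 222 and 162, with Pdgfra and Lum at 0. The median log2 ratio of the 7 genes to denervated WA-like nuclei was -2.61 in fibroblast-like and -2.93 in immune-like nuclei, beside 0.51 and 0.38 over all genes.

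**Figure D3:**
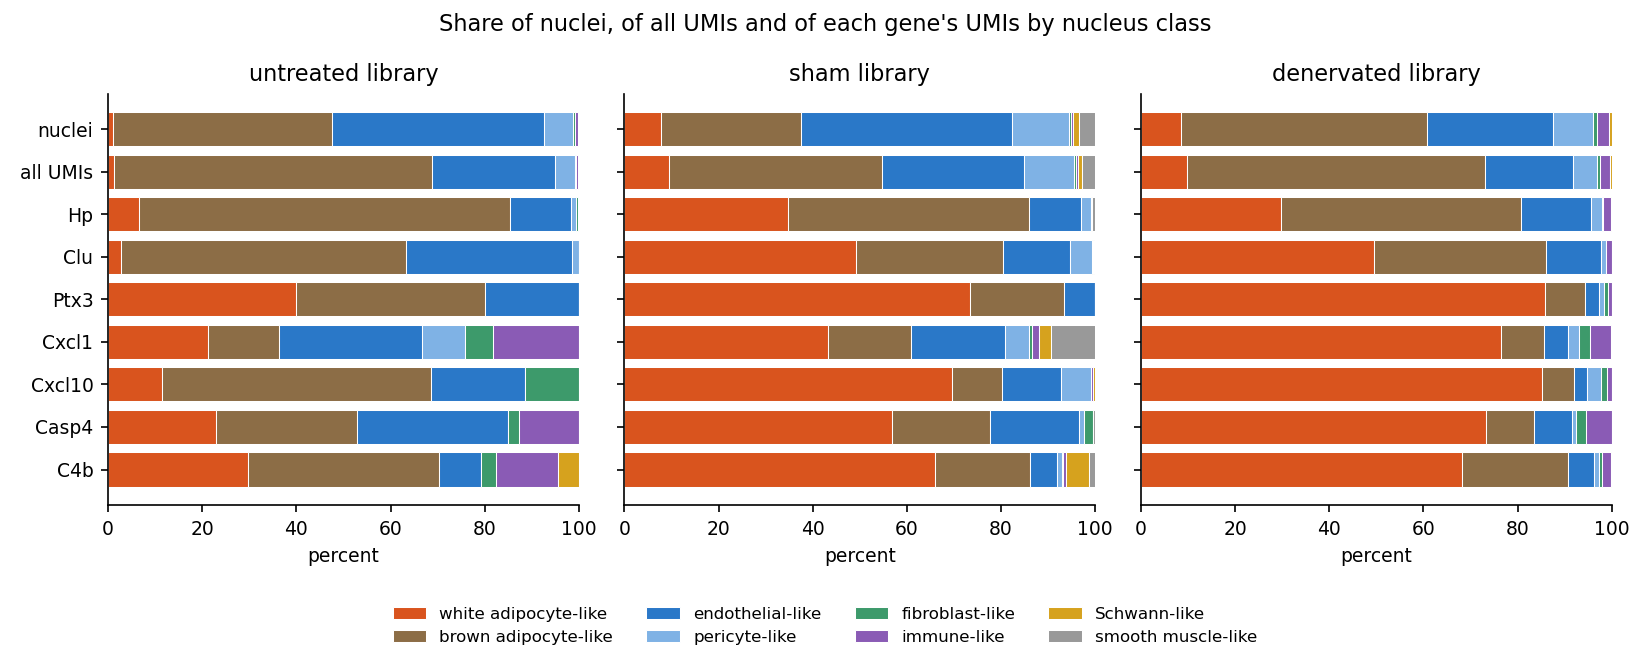
Percent of nuclei, of all UMIs and of the UMIs of each of the 7 genes that lie in each named class, for the 3 libraries; each bar adds up to the named nuclei. In the denervated library white adipocyte-like nuclei (orange) are 8.61% of nuclei but hold 85.7% of Ptx3, 85.2% of Cxcl10, 76.4% of Cxcl1, 73.3% of Casp4, 68.2% of C4b, 49.4% of Clu and 29.8% of Hp UMIs.

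Levels in BA-like nuclei were set beside those of barcodes with under 200 detected genes. These were taken to carry mostly free RNA and debris, but shallow nuclei among them were not looked for. In the denervated library these barcodes held Hp at 449 CPM (406 to 496), Cxcl1 at 68.8, Casp4 at 29.8, Ptx3 at 17.2 and Cxcl10 at 8.03. BA-like nuclei were at 477, 26.3, 12.7, 9.30 and 3.56 CPM for the same genes, so that all but Hp were below them, while Clu (56.6 against 31.0) and C4b (36.0 against 25.2) were above. Of these, only the intervals of Cxcl1, Casp4 and Clu did not overlap. In the sham library BA-like values were above these barcodes for Hp (199 against 80.5 CPM), Clu (37.5 against 7.54) and C4b (36.9 against 17.6). In the untreated library they were above for Hp (140 against 78.5), Clu (5.04 against 2.01), C4b (4.34 against 2.01) and Cxcl10 (2.34 against 2.01). These barcodes held 0 UMIs of Cxcl1 in sham and of Ptx3 in both, which allows up to 7.54 CPM sham and 6.04 CPM untreated, above the BA-like values. In these 2 libraries the intervals were apart for Hp in both, for Clu in sham and for untreated Cxcl1, which was lower in BA-like nuclei (0.586 against 10.1 CPM). With the profile of these barcodes subtracted, estimated at 7.07%, 7.28% and 2.67% of BA-like UMIs, Hp in BA-like nuclei was at 144, 208 and 478 CPM and denervated Cxcl1 at 25.2 CPM. Denervated Hp was at a like level in the profile and in the nuclei, so subtraction could hardly change it, and nothing is read from that value. Over the 7 genes the median log2 ratio in BA-like nuclei was 3.05 (2.54 to 3.61) for denervated over untreated and 0.82 (0.32 to 1.37) for denervated over sham. In BA-like nuclei with 800 to 1600 UMIs the first of these fell to 2.04. The sham library was itself above untreated, by a median of 1.35 (0.47 to 3.41), which fell to 0.74 at 800 to 1600 UMIs and was larger with classes from marker UMIs. In the main classes Clu was 7.44-fold, C4b 8.50-fold and Cxcl1 11.6-fold higher in sham than in untreated BA-like nuclei. Of the 7, 5 were at least 2-fold higher there, where 7.25% of all genes were, but all 5 were under 50 CPM.

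EC-like nuclei of the denervated library held Hp at 476 CPM (442 to 513), against 59.5 and 65.6, and Cxcl1 at 51.6 against 3.02 and 11.4. The medians over the 7 genes were 3.05 (2.58 to 3.75) over untreated and 1.81 (1.15 to 2.49) over sham. The latter was 0.64 in nuclei with 800 to 1600 UMIs and 2.77 with the low-gene profile subtracted. All 3 of the 7 that reached 50 CPM (Hp, Clu and Cxcl1) were called higher than in both libraries, where 4.87% of 5049 genes were called higher and 0.891% lower. Clu and Cxcl1 reached 50 CPM only in the denervated library, so nothing is read from this count. The log2 ratio of denervated to sham fell to 0.46 for Clu in nuclei with 800 to 1600 UMIs and to 0.98 for Cxcl1 with the low-gene profile subtracted, both under 2-fold. The 8 general adipocyte markers moved with them: in EC-like nuclei they summed to 2844, 2149 and 6230 CPM, and 9 brown markers to 1034, 845 and 2949 CPM. With the profile of the low-gene barcodes subtracted, which took 55.1%, 69.0% and 44.3% of EC-like UMIs, Hp stood at 26.5, 16.9 and 495 CPM. The denervated profile itself held Hp at 449 CPM, near the EC-like level. Its subtraction could therefore hardly change the denervated value, and nothing is read from it. The part of free adipocyte RNA in the endothelial values was not tested. In sham ECs Clu lay mostly in 2 small clusters at 201 and 195 CPM, led by Fbln5 and Alox12 in one and Vwf and Selp in the other, against 10.1 CPM in the largest cluster.

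Detection in single nuclei was compared after thinning each nucleus to 300 UMIs, with shallower nuclei left out (8 of 835 denervated WA-like, 44 of 5049 BA-like and 700 of 2607 EC-like). A UMI of any of the 7 genes was then found in 28.0% (19.8 to 37.5), 33.8% (30.7 to 37.0) and 71.7% (68.5 to 74.8) of WA-like nuclei. The corresponding BA-like shares were 4.51%, 8.14% and 15.8%, and the EC-like shares 2.24%, 3.10% and 16.6%. The denervated BA-like share was not above that of EC-like nuclei, at median depths before thinning of 891 and 512 UMIs, so expression in BA-like nuclei is not read from it. Without thinning the 3 denervated shares were 89.5%, 37.5% and 25.2%.

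Per gene, denervated WA-like nuclei held Hp in 37.5%, Cxcl1 in 23.9%, C4b in 18.5%, Casp4 in 17.4%, Ptx3 in 12.3%, Clu in 11.7% and Cxcl10 in 8.34%. Ptx3 was found in 0.221% of sham and 0.935% (1 of 107) of untreated WA-like nuclei, and in 0 of 4678 untreated BA-like nuclei, which allows a share with a UMI at this thinned depth of up to 0.0641%. Before thinning, 2 untreated BA-like nuclei held a Ptx3 UMI. At least 2 of the 7 genes were found together in 38.5% (35.1 to 41.9) of denervated WA-like nuclei, at least 3 in 14.8% and at least 4 in 3.51%, with 6 as the most in 1 nucleus. The values for at least 2 and at least 3 were 7.51% and 1.43% in sham, and 4.67% and 1.87% (2 of 107) in untreated WA-like nuclei. In denervated BA-like nuclei at least 2 were found in 1.18%. These shares rise with the single-gene shares above. What those alone would give was not computed, so no link between the genes within a nucleus is read from them.

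**Figure D4:**
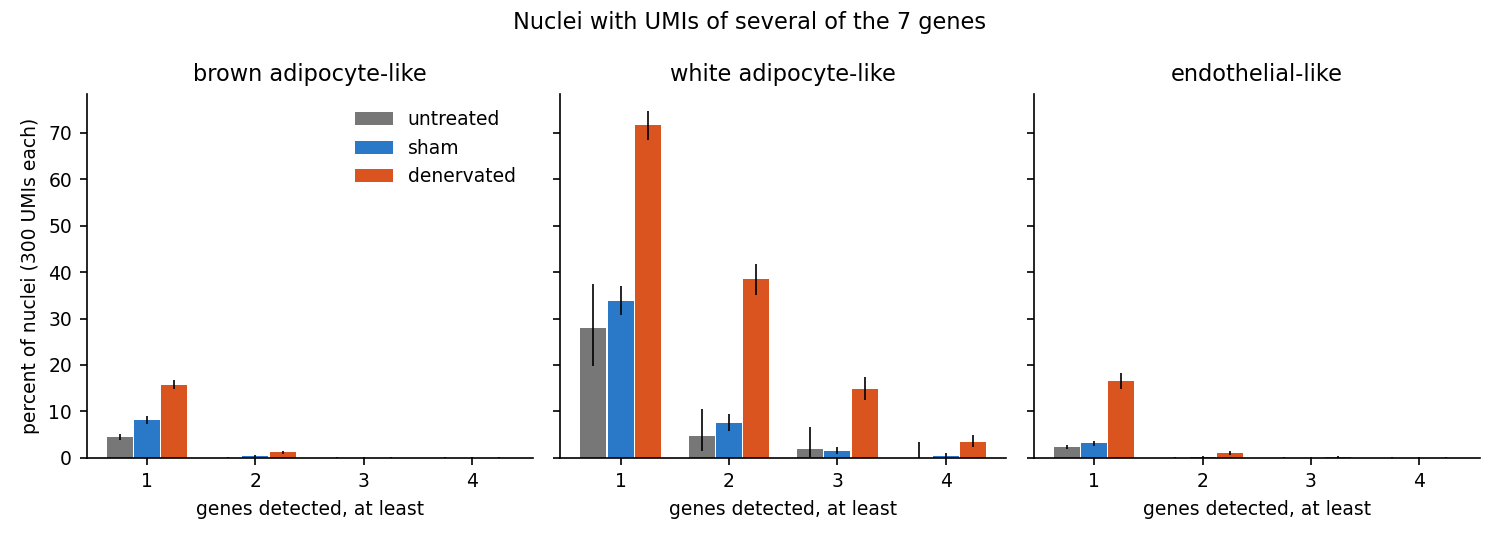
Percent of nuclei, each thinned to 300 UMIs, with UMIs of at least 1, 2, 3 or 4 of the 7 genes, by class and library. Lines are exact Clopper-Pearson 95% intervals; denervated white adipocyte-like nuclei reach 71.7%, 38.5%, 14.8% and 3.51%, and brown adipocyte-like and endothelial-like nuclei stay under 17% at 1 gene.

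The 7 genes were not even over the denervated WA-like nuclei, which fell into 5 clusters formed without them. The cluster of 235 nuclei led by Ptx3, Ccl7 and Cxcl1 held Cxcl1 at 2550, Ptx3 at 1199, Casp4 at 902 and Cxcl10 at 449 CPM. A cluster of 143 nuclei led by Thbs1, Mt2 and Chl1 held the most Hp, 2539 CPM, and Clu, 914 CPM, where the cluster of 235 had 1761 and 340. A cluster of 122 nuclei led by the interferon-inducible Rsad2 and Herc6 was lowest for Ptx3 (199.5 CPM), Cxcl1 (726) and Casp4 (319), but its Cxcl10, an interferon-inducible gene too, was at 231 CPM, inside the range of 212 to 269 of the other 3. In BA-like nuclei the cluster of 658 led by St3gal6 and the chaperones Stip1, Hsph1 and Hspa1a stood out, with Clu at 201, C4b at 138 and Hp at 679 CPM, against 28.5 to 57.8, 6.41 to 42.7 and 431 to 525 in the other 6. Leaving out this and the other clusters led by heat shock or immediate early genes left the log2 ratios of denervated to untreated BA-like nuclei inside their counting intervals, at 2.66 in place of 2.06 for Casp4 and at 6.53 in place of 5.49 for Cxcl1. The Casp4 ratio moved outside its interval at 800 to 1600 UMIs (0.95) and with classes from marker UMIs (3.57). Sham BA-like nuclei showed the same unevenness, with Clu at 103 CPM and C4b at 144 CPM in the 513 nuclei led by Irf4, Pdk4 and Jund, and at 137 and 76.4 CPM in the 300 led by Atf3, Arc and Cyr61. Of 3 untreated WA-like clusters, the one of 34 nuclei held Hp at 1237 CPM and Casp4 at 298 CPM, against 208 and 24.4 in the one of 37.

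**Figure D5:**
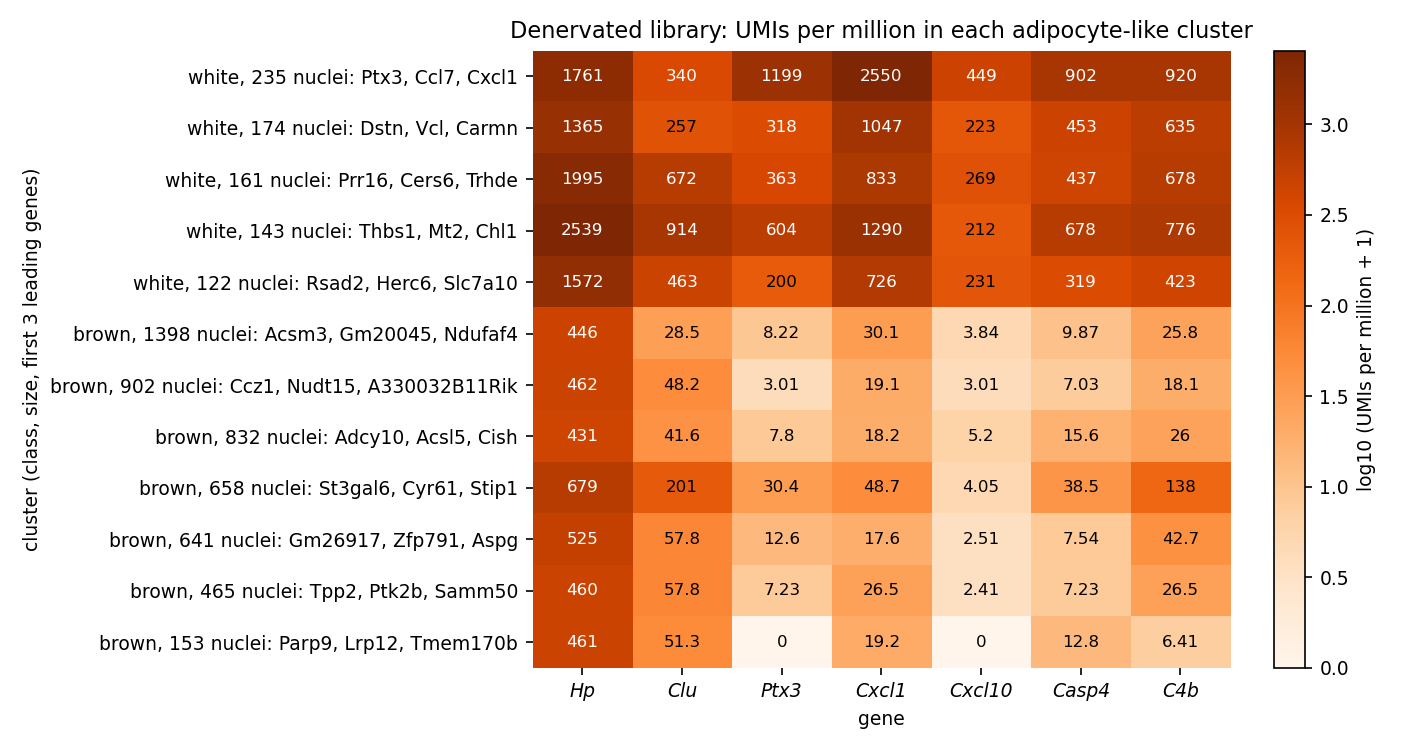
CPM of the 7 genes (columns) in each white and brown adipocyte-like cluster of the denervated library (rows, named by size and first 3 leading genes); colour is log10 of the value plus 1. The 5 white adipocyte-like rows are above the 7 brown adipocyte-like rows in every column, and Ptx3 runs from 199.5 to 1199 among them.

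The pathways around the 7 genes were followed with 10 lists of 260 genes, of which 251 were in the tables. In WA-like nuclei 98 list genes reached 50 CPM, and 28 were at least 2-fold higher in the denervated library than in both others, beside the 3.9% of all genes given above. For the 1 list gene that was lower, the share over all genes was not counted. By list the higher genes were 6 of 12 acute-phase genes, 6 of 7 chemokines, 2 of 4 caspase and inflammasome genes, 8 of 26 genes of NF-κB, STAT3 and C/EBP signalling, 2 of 9 cytokines and receptors, 2 of 5 interferon response genes, 1 of 18 heat shock and immediate early genes and 1 of 7 partner genes, but 0 of 10 complement genes and 0 of 1 chemokine receptor. Without the 7 genes these counts were 4 of 9 acute-phase genes and 4 of 5 chemokines, and those 4 chemokines reached 50 CPM in no other library, so nothing is read from their count or median. Ptx3, Saa3, Tnfaip6, Gbp5, Ier3, Tnfaip3, Vcam1, Sdc4, Bst2 and Rsad2 also reached 50 CPM only in the denervated library. They passed the filter through the library where they are high, so nothing is read from the other list counts either. Median log2 ratios over untreated and over sham were 1.47 and 0.94 for the acute-phase genes, 0.87 and 0.95 for the NF-κB, STAT3 and C/EBP genes and 0.55 and -0.43 for the complement genes, with the 7 genes included. The all-gene medians were -0.12 and 0.13, over genes with at least 50 CPM in either library of that ratio, a different filter. The acute-phase list holds some of the 7 genes. It and the NF-κB, STAT3 and C/EBP list hold genes that passed the filter only through the denervated library. Nothing is therefore read from these medians. The chemokine medians, 4.23 and 3.65, are not set beside these. The first is the ratio of Cxcl2, which had 0 untreated UMIs, so it rests on the 0.5 counts added. The 7 genes themselves account for 5 of the 28. The other 23 include, chosen after their values were seen, the NF-κB inhibitors and targets Nfkbia (205, 198 and 2201 CPM), Tnfaip3 (34.2, 32.4 and 295 CPM) and Birc3 (131, 91.4 and 621 CPM). The transcription factor Irf1 was at 330, 458 and 1833 CPM. Other genes of the NF-κB, STAT3 and C/EBP list went the other way. Pim1 (353, 407 and 224 CPM) and Cebpb (359, 696 and 298 CPM) were lowest in denervated WA-like nuclei. The monocyte chemokines Ccl2 and Ccl7 were listed at 0 in the 107 untreated nuclei, at 4.76 and 11.4 CPM in sham and at 140 and 230 CPM in denervated nuclei. The acute-phase gene Saa3 was at 5.70, 8.57 and 103 CPM, from 1, 9 and 80 UMIs. The interleukin-1 receptor Il1r1 was at 85.5, 51.4 and 395 CPM.

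In BA-like nuclei 1 of 66 list genes (Hp) was called higher and 0 lower, where 0.544% and 0.0403% of all genes were. The median log2 ratio of these 66 was 0.15 over untreated and -0.20 over sham. Apart from Hp, no list gene was called in the main classes, but with classes from marker UMIs the count was 7. The list genes with the highest levels in each list are given next. The metal-binding Mt1 was at 95.6, 212 and 205 CPM, the complement protease Cfd at 177, 732 and 335 CPM, the C/EBP factor Cebpb at 339, 305 and 320.5 CPM and the interleukin-6 receptor subunit Il6st at 111, 122 and 122 CPM. The chemokine Ccl25 was at 75.5, 108 and 95.8 CPM, the kinase Pim1 at 683, 1461 and 570.5 CPM and the metalloreductase Steap4 at 69.0, 94.1 and 84.3 CPM. The sham library was highest for Ccl27a (15.6, 86.3 and 10.3 CPM), the lipoprotein receptor Vldlr (119, 251 and 103 CPM), and the heat shock proteins Hsp90aa1 (532, 1039 and 820.5 CPM) and Hspb1 (367, 1024 and 561 CPM). Stat2 (53.6, 47.4 and 53.8 CPM) and Irf9 (35.4, 37.9 and 51.7 CPM), which carry the type I interferon signal, and the decoy receptor Ackr3 (127, 100.1 and 125 CPM) differed by less than 2-fold. The same held for the complement inhibitor Cd59a (127, 187 and 123 CPM), the TGF-β receptor Tgfbr2 (379, 267 and 340.1 CPM) and the syndecan Sdc4 (74.1, 55.8 and 79.8 CPM). In EC-like nuclei 6 of 79 list genes were called higher and 2 lower, where 4.87% and 0.891% of all genes were. Of the 6, 3 were Hp, Clu and Cxcl1 themselves, and Hp and Clu were 2 of the 4 acute-phase genes that were tested and called there. Without the 7 genes, 3 of 76 list genes were called higher and 2 lower. Clu and Cxcl1 reached 50 CPM only in the denervated library, so nothing is read from the count of 6.

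The genes with the most similar levels were sought over 18 combinations of class and library, which share libraries and differ in depth, by Pearson r of log2 (CPM + 10). The nearest of 9298 genes to Ptx3 were Sqstm1 (r = 0.91), Saa3 (0.90) and Prr16 (0.84). Those to Cxcl1 were Thoc6 (0.91), Ccl7 (0.89) and Junb (0.87), and those to Casp4 were Hmox1 (0.87), Tnfaip3 (0.87) and Sp140 (0.87). Hp was nearest to the growth hormone receptor Ghr (0.91), Apol6 (0.91) and Chp1 (0.90), and Cxcl10 to Gm16685 (0.90), Trim69 (0.90) and Hsph1 (0.89). The values were lower for Clu, with Aldh1l1 (0.87), Gramd1a (0.84) and Ccdc152 (0.83), and for C4b, with Alcam (0.83), Arrdc3 (0.82) and Chrdl1 (0.81). Saa3, Ccl7 and Tnfaip3 are also genes of the lists above.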

How the data were processed

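Nuclei were captured on BD Rhapsody cartridges (20000 loaded per cartridge) and sequenced by the authors, who deposited tables of error-corrected UMI counts per nucleus and gene. Per the file headers the untreated and denervated counts came from the BD WTA Rhapsody pipeline, version 1.9-nuclei, with GRCm38 and GENCODE M19; the sham table has no header, so its pipeline is not given in the sources used here. The submitters' processing notes name Seurat 4.0.6 and a human build, which was not used. The study's removal of debris and free RNA was not repeated.

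Filters of 200 or more genes and no more than 50% mitochondrial UMIs left 11792, 14027 and 10462 barcodes of the untreated, sham and denervated library (medians of 1030, 759 and 705 UMIs after the next step). Barcodes holding 3 or more UMIs from both of 2 marker lists that exclude each other, with sums of which the lesser was not under 25% of the greater, were taken out as doublets (1702, 2248 and 767). Louvain clusters (2000 variable genes, 30 components, 20 neighbours, resolution 0.5, adipocyte clusters again at 1; scikit-learn 1.9.0, python-igraph 0.11.9) were formed per library, named by at least 3 marker genes, and rebuilt names may differ from the study's. UMIs were summed per class and given as CPM. Ratios have exact conditional binomial, levels exact Poisson and shares Clopper-Pearson intervals (scipy 1.17.1). Genome-wide ratios added 0.5 counts. No test between conditions was run, with 1 library each. Ratio calls and intervals were tested on simulated data first. The 7 genes and all lists were chosen with earlier results of these data known. From each list, up to 4 genes past the 2-fold rule in BA-like nuclei and up to 2 others with the highest CPM were to be named, 3 likest genes per member (r over classes with at least 50000 UMIs), and cluster leaders. Alternatives changed filters, doublets, clustering, scaling, depth and free RNA.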

Additional observations from a re-analysis of the deposited data

How the results depend on the processing

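Over 994 values of the 7 genes under 16 alternatives, 868 stayed inside the main counting interval, 125 moved outside it and 1 changed sign although its main interval excluded 0. This was C4b, denervated over sham in WA-like nuclei, at a log2 ratio of -0.073 with classes from marker UMIs. Some ratios whose main interval included 0 also changed sign and are counted among the others, such as Cxcl10, denervated over sham in BA-like nuclei (-1.34 to 0.79). The alternatives without clusters led by heat shock or immediate early genes, without shared barcodes and without the BA-like cluster led by Lep were chosen after seeing the data, as was the use of all alternatives for the ratios in WA-like nuclei. With classes from marker UMIs the median log2 ratio of the 7 genes was 3.93 for denervated over untreated BA-like nuclei, 1.71 for denervated over sham WA-like nuclei, and 2.30 (sham) and 3.36 (denervated) for WA-like over BA-like nuclei. In nuclei with 800 to 1600 UMIs it was 2.04 for denervated over untreated BA-like and 0.64 for denervated over sham EC-like nuclei. With free RNA subtracted the EC-like medians were 3.83 over untreated and 2.77 over sham. At most 10% mitochondrial UMIs gave 2.32 for denervated over untreated WA-like nuclei, and for denervated over sham at least 500 genes gave 1.64 and clustering all libraries together 1.68. Keeping the 7 genes and lists in the clustering gave 4.24 for WA-like over BA-like sham nuclei. The share of denervated BA-like nuclei with any of the 7 genes was 32.7% thinned to 800 UMIs, 37.5% without thinning, 14.6% with the genes kept in the clustering and 20.5% with marker classes. The count of list genes higher in denervated BA-like nuclei was 2 with the genes kept, 7 with marker classes and 2 at 800 to 1600 UMIs. The cause was not tested. All 10 median ratios kept their sign under every alternative that gave a value. Levels under 1 CPM rest on 1 to 5 UMIs, and the 107 untreated WA-like nuclei limit each ratio against them. No paired analysis was possible because each condition has 1 library and the labels give no shared replicate numbers. In other experiments the study used the opposite, sham-operated lobe of denervated mice and also a separate sham-operated group. Which of these gave the sham library was not stated in the sources used here, so it may share mice with the denervated library.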
